A study of Mus musculus with 15 samples.

Results

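The 35 genes described here encode chaperones, the proteins that help other proteins fold, or factors of the response to misfolded protein. They were chosen by name and kept as 2 groups, 17 heat shock chaperones and 18 genes of the endoplasmic reticulum (ER) and its unfolded protein response, out of 15932 genes in the deposited table. All 35 were present in it. The study took single-cell suspensions of striatum from 15 male C57BL/6J mice, bought at 8 weeks of age and dosed after about 1 week of habituation. Per the labels, 5 mice received placebo, 5 received haloperidol from implanted pellets and 5 received olanzapine in their food, each for 28 to 29 days. No transgene or mutation was named, and all 15 mice shared strain, sex and brain region. Haloperidol and olanzapine are antipsychotic drugs. The routes of the drugs differed, and the route of the placebo was not named, so drug and route cannot be told apart. Each brain was sliced, triturated, filtered and passed through a dead cell removal step, so every level is that of cells that survived it. Cells were barcoded with a 10x 3′ kit that counts molecules by unique molecular identifiers (UMIs).

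Chaperones work in separate compartments. In the cytosol, Hspa8 and the stress-induced Hspa1a and Hspa1b belong to the HSP70 family and bind unfolded stretches with ATP, helped by J-domain partners such as Dnaja1, Dnajb1 and Dnajb6, while Hsp90aa1 and Hsp90ab1 encode HSP90, which finishes the folding of kinases and receptors. Misfolded cytosolic protein frees heat shock factor 1, which binds heat shock elements in these genes. In the ER, Hspa5 (BiP) and Hsp90b1 (GRP94) play the corresponding roles, Calr and Canx fold glycoproteins through their sugars, and the Pdia enzymes form disulfide bonds. Misfolding there activates IRE1, PERK and ATF6, whose downstream factors include Xbp1, Atf4 and Ddit3. The ER set is known to be prominent in cells that make much secreted and membrane protein.

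Different response elements lay in the promoters of the 2 groups, and stretches that hold them are shown because each stress response is known to act through its own element. RefSeq windows from 250 bases before to 50 after the start (GRCm38.p6, which is mm10) were at hand for 30 of the 35 members, 14 of the 17 heat shock chaperones and 16 of the 18 ER genes. The other 5 were Hsp90aa1, Hsp90ab1, Hspa8, Manf and Hyou1. The ER stress response element, searched on both strands as CCAAT, any 9 bases and CCACG, lay in the windows of 7 ER members, Hspa5, Hsp90b1, Calr, Canx, Pdia6, Dnajc3 and Creld2, and in 0.137% of the 27025 genes of the table. The shorter ER stress response element II (ATTGG, any 1 base and CCACG) lay in those of Herpud1 and Dnajb11 and in 0.0444% of genes. Neither element was in the window of a heat shock chaperone. Each line gives at most 30 bases 5′ to 3′ on the gene's strand with the element in capitals, and a run from CGTGG to ATTGG is the same ER element on the other strand.
Hspa5, chr2:34772020-34772048, plus strand: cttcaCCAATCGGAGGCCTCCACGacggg
Calr, chr8:84847070-84847098, minus strand: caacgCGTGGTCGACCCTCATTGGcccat
Canx, chr11:50325795-50325823, minus strand: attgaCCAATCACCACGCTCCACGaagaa
Hsp90b1, chr10:86705633-86705661, minus strand: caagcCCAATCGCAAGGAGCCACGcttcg
Hsp90b1, chr10:86705528-86705556, minus strand: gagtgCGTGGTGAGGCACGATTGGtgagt
Dnajc3, chr14:118937822-118937850, plus strand: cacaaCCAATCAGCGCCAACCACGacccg
Herpud1, chr8:94386368-94386396, plus strand: cgggcgctgATTGGGCCACGttggacact

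Heat shock elements gave the reverse pattern. A run of 3 alternating GAA and TTC units with any 2 bases between neighbours, on either strand, lay in the windows of 5 heat shock chaperones, Hsph1, Hspd1, Hspe1, Dnajb6 and Chordc1, and in 0.662% of genes. A pair of units, GAA then TTC at the same spacing, which is also part of the longer run, lay in those of 10 heat shock chaperones (these 5 with Hspa1a, Hspa1b, Hspb1, Dnaja1 and Bag3) and in 9.04% of genes. The opposite pair, TTC then GAA, lay in those of the first 5 and in 9.6% of genes. No ER member held any of these letters in its window. Hspa1a and Hspa1b carry identical stretches. They encode nearly the same protein, and UMIs of one cannot be safely told from those of the other. Hspd1 and Hspe1, the mitochondrial HSP60 and its partner HSP10, are neighbours on opposite strands and share the same overlapping units, which lie in an exon of Hspd1 in GENCODE. The Hspa5, Dnaja1 and Dnajb6 stretches also overlap a GENCODE exon of their own gene.
Hspa1a, chr17:34972242-34972271, minus strand: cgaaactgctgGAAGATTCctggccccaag
Hspa1b, chr17:34959324-34959353, minus strand: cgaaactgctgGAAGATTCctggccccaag
Hspb1, chr5:135887811-135887840, plus strand: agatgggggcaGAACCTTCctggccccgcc
Dnaja1, chr4:40722333-40722362, plus strand: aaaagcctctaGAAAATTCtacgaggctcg
Dnajb6, chr5:29735844-29735872, plus strand: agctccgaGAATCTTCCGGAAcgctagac
Hspe1, chr1:55088051-55088079, plus strand: acggtccgTTCTAGAACCTTCcggaaggc
Hspd1, chr1:55088056-55088084, minus strand: gcggggccTTCCGGAAGGTTCtagaacgg

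After quality filters 5477 cells with 18261763 UMIs were analysed, 70 to 1172 cells and 215990 to 4235427 UMIs per mouse, in the 7 classes of the deposited annotation. The labels give 500 cells loaded for each mouse. More cells than that were deposited for olanzapine 3 (1189), haloperidol 3 (630), olanzapine 5 (582) and placebo 5 (514), and the reason was not tested. The 4 mice numbered 1 to 4 in the labels (olanzapine 1 and 2, haloperidol 1 and 2) gave at most 122 cells each, and 38 of the 81 predicted doublets came from olanzapine 2. Cell barcodes without their suffix were shared by 2 or more mice in 223 cases. Classes matched their markers with 3 qualifications. Microglial markers made up 3.82 to 5.14% of UMIs in microglia and at most 0.0485% elsewhere, and neuroblast markers 0.729 to 1.22% in neuroblasts and at most 0.0638% elsewhere. The class labelled olig precursor held myelin genes (6.07 to 8.47%) and the class labelled oligodendrocyte held precursor genes (0.642 to 0.996%), so the names of these 2 classes are given as labels only. The class labelled other was vascular, with endothelial and mural genes. Of 704 neuroblasts, 181 carried at least 2 UMIs of cell cycle genes.

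ER members differed widely between classes, with microglia at the high end and neuroblasts at the low end. Levels in this and the next paragraph are CPM (counts scaled to a common library total) in placebo mice, from UMIs added up for each mouse and class and scaled by TMM over all sums. They are descriptions with no test, because the classes rest on expression in the same cells. The highest mean was in microglia for 11 of the 18 ER members, in astrocytes for 4 and in neurons for 3, and the lowest was in neuroblasts for 14. Hspa5, the master ER chaperone, averaged 2082 ± 894 CPM in microglia (SD, n = 5), 549.6 ± 163 CPM in neurons, 444 ± 108 CPM in astrocytes and 164 ± 64.1 CPM in neuroblasts. Its lowest microglial sample, 1365 CPM, lay above the highest neuronal one, 764 CPM. Pdia3, a disulfide isomerase that works with Calr and Canx, averaged 1039.5 ± 154 CPM in microglia, 511 ± 112 CPM in astrocytes and 97.1 ± 31.2 CPM in neuroblasts. Sdf2l1, a partner of BiP, ranged from 386 ± 50.2 CPM in microglia to 12.5 ± 8.29 CPM in neuroblasts. Herpud1, a factor of ER-associated degradation, averaged 349 ± 143 CPM in microglia, and no other class reached its lowest microglial sample. Calr averaged 745 ± 188 CPM in microglia and 637 ± 155 CPM in neurons, which overlapped, against 101 ± 30.1 CPM in neuroblasts.

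The other ER members, like Calr, overlapped the next class where they were highest. Dnajb9 and Dnajc3, J-domain partners of BiP, were highest in astrocytes, at 260.4 ± 51.2 CPM and 171 ± 36.4 CPM, and Dnajc3 averaged only 11.3 ± 7.66 CPM in neuroblasts. Pdia4 (184 ± 32.1 CPM) and Creld2 (62.4 ± 22.97 CPM) also had their highest means in astrocytes, and Dnajb11 (215 ± 57.3 CPM), Ddit3 (57.99 ± 17.3 CPM) and Hyou1 (34.2 ± 6.19 CPM) in neurons. None of these 7 was clear of the next class. Hsp90b1, Canx, Pdia6, Xbp1, Atf4 and Manf had their highest means in microglia, 819 ± 125 CPM for Hsp90b1, 244 ± 92.1 CPM for Xbp1 and 180.3 ± 26.7 CPM for Atf4, all overlapping the next class. Ddit3, which encodes CHOP, a factor of cell death under ER stress, ran only from 39.1 CPM in the class labelled oligodendrocyte to 57.99 CPM. Scaling mattered for the top of the order. In plain CPM without TMM, the highest mean was in microglia for 4 ER members and in neurons for 7, while Hspa5, Pdia3, Herpud1 and Sdf2l1 stayed highest in microglia, with Pdia3 no longer clear of every class. By mean, the low end moved little, with neuroblasts lowest for 13 ER members in plain CPM and 14 under RLE size factors. All neuroblast samples lay below every sample of the other classes for fewer ER members. These were 6 under TMM, 7 under RLE and 3 in plain CPM, and the rest overlapped another class.

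**Figure D1:**
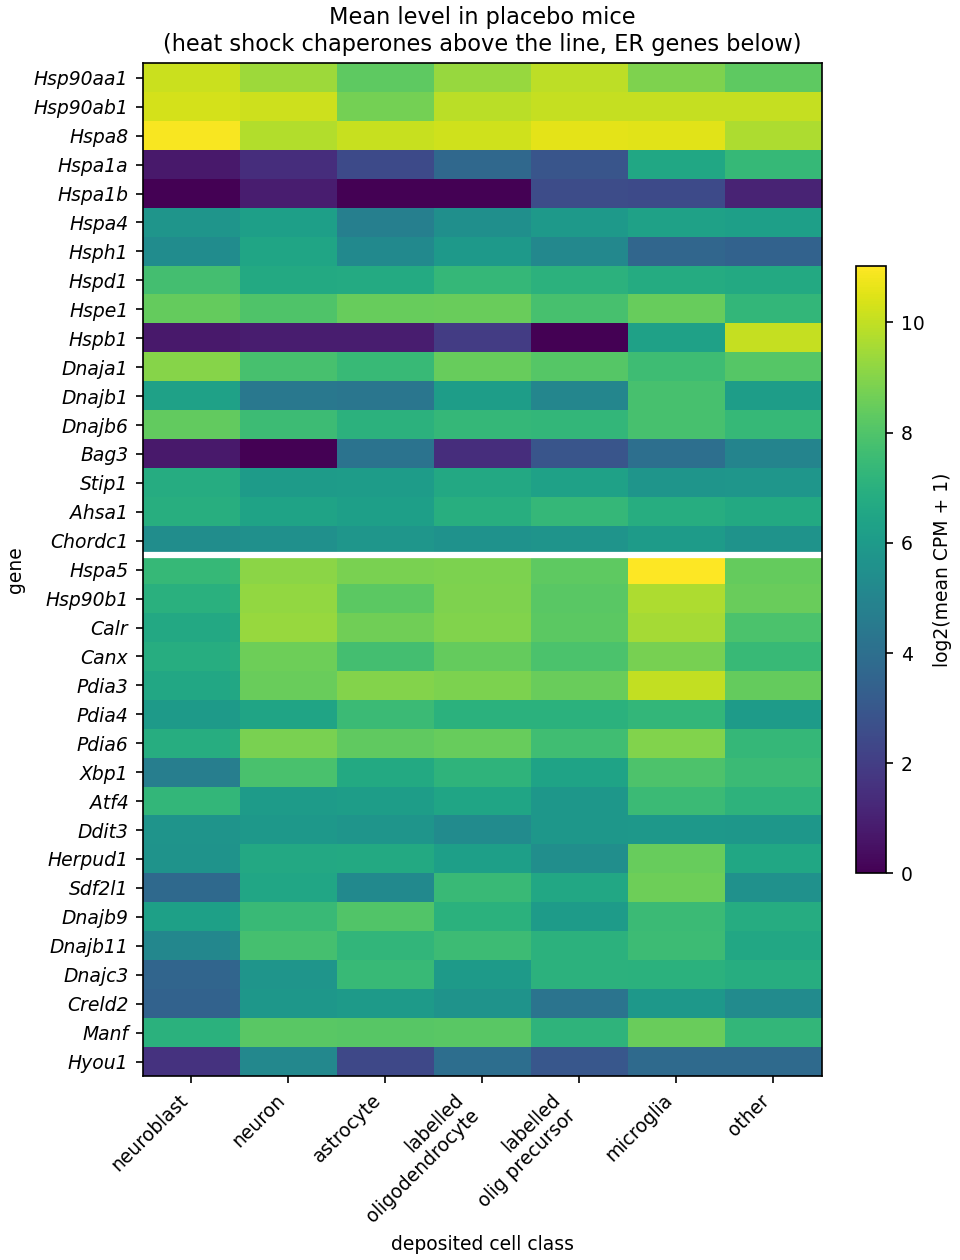
Mean level of each of the 35 members (rows) in each deposited class (columns) in placebo mice, as log2(mean CPM + 1) with TMM scaling over all sums (3 to 5 mice per class). Below the white line, 14 of 18 ER members are darkest in neuroblasts and 11 are brightest in microglia; above it, Hspb1 and Hspa1a are bright in the class labelled other and dark in neuroblasts.

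Heat shock chaperones followed another order. Of the 17, 7 had their highest mean in neuroblasts, 3 in microglia, 3 in the class labelled other, 2 in the class labelled olig precursor and 1 each in neurons and the class labelled oligodendrocyte. Hspa8, the constitutive HSP70, averaged 1913 ± 328 CPM in neuroblasts and 814 ± 245 CPM in the class labelled other (SD, n = 5). Hsp90aa1 averaged 1115 ± 265 CPM in neuroblasts and 310.2 ± 282 CPM in astrocytes, and Hsp90ab1 1260.5 ± 206 CPM and 419 ± 95.3 CPM. For these 3 the highest class overlapped the next, and under RLE size factors the highest mean of Hsp90aa1 moved to the class labelled olig precursor that of Hsp90ab1 to neurons and that of Stip1, a cochaperone between HSP70 and HSP90, to the class labelled oligodendrocyte. Under RLE 4 of the 17 were highest in neuroblasts, 3 in neurons and 2 in microglia. The cochaperones Dnaja1 (515 ± 75.4 CPM) and Dnajb6 (331 ± 50.9 CPM) were clear of every other class in neuroblasts, Dnaja1 under TMM alone. Astrocytes had the lowest mean for 8 of the 17, counting Hspa1b, which was at 0 in neuroblasts and the class labelled oligodendrocyte too.

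Of the small and inducible chaperones, Hspb1 and Hspa1a were found mostly in the class labelled other and in microglia, while Dnajb1 and Bag3 were spread more widely. Hspb1 (HSP27), known from vessels and stressed cells, averaged 1063 ± 80.6 CPM in the class labelled other, 77.3 ± 61.8 CPM in microglia and 0.676 ± 1.51 CPM in neuroblasts, and was clear of every class under all 3 scalings. Hspa1a averaged 167 ± 114 CPM in the class labelled other, 93.1 ± 65.4 CPM in microglia and 0.676 ± 1.51 CPM in neuroblasts. Dnajb1, the J-domain partner induced with it, averaged 224 ± 87.2 CPM in microglia, 78.4 ± 13.7 CPM in neuroblasts and 18.96 ± 11.1 CPM in astrocytes. Bag3, which couples HSP70 to autophagy, reached 30.8 ± 20.6 CPM in the class labelled other and 17.3 ± 6.21 CPM in astrocytes, and had no UMI in placebo neurons. Hspa1b had 19 UMIs in 19 cells of the whole data set, Bag3 215 UMIs and Hyou1, the large ER HSP70, 230 UMIs. These 3 members passed the filter on low counts in no class and were not tested. Of the other 32, 16 passed in all 7 classes. Hspd1 (212 ± 117 CPM in neuroblasts), Stip1 (114 ± 31.1 CPM in neuroblasts), Hspe1 (362 ± 36.5 CPM in the class labelled oligodendrocyte), Ahsa1 (159 ± 22.98 CPM in the class labelled olig precursor), Hsph1 (89.6 ± 16.01 CPM in neurons), Hspa4 (78.4 ± 14.2 CPM) and Chordc1 (64.7 ± 23.9 CPM) in microglia were not clear of the next class.

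The balance of the 2 groups inside a library does not depend on scaling. The summed UMIs of the 18 ER members divided by those of the 17 heat shock chaperones were 0.174 to 0.339 in neuroblasts over 14 mice and 1.08 to 1.93 in microglia over 13 mice, ranges far apart. The ratio was 0.988 to 2.27 in astrocytes, 0.605 to 2.06 in neurons and 0.771 to 1.19 in the class labelled oligodendrocyte, against 0.318 to 0.67 in the class labelled olig precursor and 0.392 to 0.696 in the class labelled other. A sum gives more weight to members with more UMIs.

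By drug, the same ratio in microglia was 1.45 to 1.93 in 5 placebo mice, 1.29 to 1.61 in 3 haloperidol mice and 1.08 to 1.43 in 5 olanzapine mice. In the class labelled other it was 0.549 to 0.696, 0.493 to 0.664 and 0.392 to 0.506, and in the class labelled olig precursor 0.524 to 0.67, 0.471 to 0.518 and 0.318 to 0.514. In these 3 classes the olanzapine and placebo mice did not overlap, although the gaps in microglia and in the class labelled olig precursor were narrow. In neuroblasts, neurons, astrocytes and the class labelled oligodendrocyte the 3 groups overlapped. These ratios were singled out after their values were seen and carry no test.

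**Figure D2:**
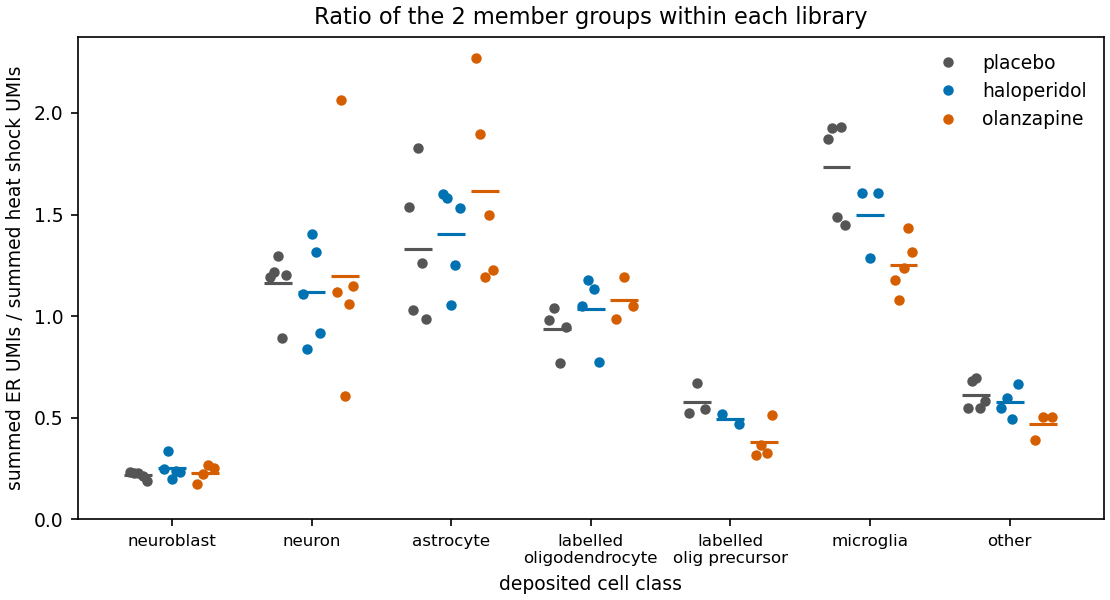
Ratio of summed ER UMIs to summed heat shock UMIs (vertical axis, no unit) for each mouse with at least 10 cells of a class (points, coloured by drug; bars are group means). Neuroblasts lie at the bottom with all 14 mice below every microglial, astrocyte and neuronal sample, and the olanzapine points lie under the placebo points in microglia, the class labelled olig precursor and the class labelled other.

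Neither drug gave a call for any member. UMIs of each mouse and class were added up and compared with edgeR's quasi-likelihood test, with Benjamini-Hochberg adjustment over all genes of a class. At an adjusted threshold of 0.05 the calls were 0 of 159 member-by-class tests for haloperidol against placebo (background 0.0097% of 20628 tests of all genes), 0 of 184 for olanzapine against placebo (background 0.0429% of 23329) and 0 of 159 for haloperidol against olanzapine (background 0%). In simulations of these libraries a 4-fold change was recovered in 85.7 to 100% of changed genes and a 2-fold change in 30.2 to 75.5%, depending on class and comparison, so smaller changes than these may pass unseen. The simulations gave every gene of a class the same spread between mice and held no outlying mice. They also changed 181 to 197 tested genes of a class at once, which makes the adjusted threshold easier to reach. The real comparisons gave at most 10 calls over all classes. Real genes with a wider spread, or that change with few others, may therefore be recovered less often. The p-values of these comparisons measure the spread between mice. Both comparisons with placebo use the same 5 placebo mice.

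Tests at an unadjusted p under 0.05 were counted in each member group. With olanzapine, 9 of 83 tests of heat shock chaperones were higher than placebo and 0 lower, against a background of 2.08% higher and 2.02% lower. The 9 were Hspa1a, Hspa8, Dnaja1 and Hspb1 in the class labelled other, Dnaja1 and Hspa8 in microglia, Hsp90ab1 and Hspa8 in neuroblasts, and Hsp90ab1 in the class labelled olig precursor. ER members gave 3 higher and 2 lower of 101. With haloperidol, heat shock chaperones gave 1 higher and 2 lower of 73, and ER members 1 higher and 2 lower of 86, against 2.02% and 1.94% of all genes. Without the 4 mice of few cells (olanzapine 1 and 2, haloperidol 1 and 2) the haloperidol counts were 0 higher and 6 lower for heat shock chaperones and 2 higher and 9 lower for ER members. That setting ran 22980 tests of all genes rather than 20628. The share of all genes at this p was not counted for it, so these counts have no background. The olanzapine count of 9 higher heat shock tests depended on single mice: it was 3 without olanzapine 3, which holds the most cells, and 5 without placebo 2 or placebo 5. It was 0 when all cells of a mouse were summed without regard to class. That setting has at most 1 test for each of the 17 heat shock chaperones, not 83 tests, so the 2 counts cannot be compared directly.

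**Figure D3:**
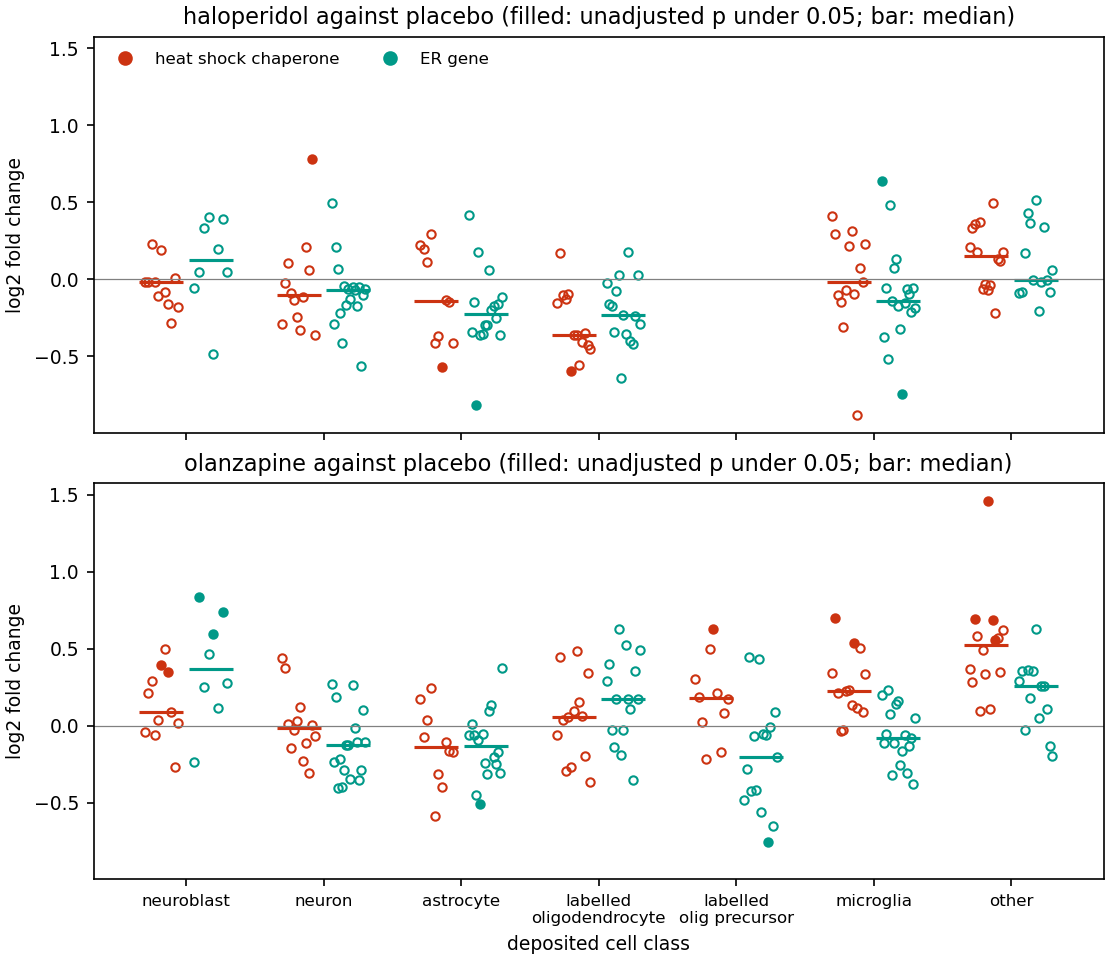
Log2 fold change of each tested member (points) in each deposited class, heat shock chaperones in red and ER genes in green, for haloperidol (top) and olanzapine (bottom) against placebo; bars are medians and filled points have an unadjusted p under 0.05. In the lower panel all 14 heat shock points of the class labelled other lie above 0, and in the upper panel 12 of 13 heat shock points of the class labelled oligodendrocyte lie below 0; the class labelled olig precursor had too few haloperidol mice to test.

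In the vascular class labelled other, heat shock chaperones were higher in olanzapine mice than in placebo mice for 14 of the 14 that passed the filter on low counts, with a median log2 difference of 0.52, where 48.6% of all genes were higher and their median was -0.02. The groups held 3 olanzapine and 5 placebo mice. Without olanzapine 3, 11 of the 14 were higher and the median was 0.24. Hspa1a, which is switched on by protein damage, was at 111, 139.7, 157, 175 and 451 CPM in placebo mice and 282, 668 and 759.8 CPM in olanzapine mice, scaled within the class as are all values by mouse. Only placebo 4 lay above the lowest olanzapine mouse. The log2 difference was 1.46 ± 0.45 (SE) with an adjusted p of 0.315, from 122 UMIs in the placebo and 235 in the olanzapine mice. Without placebo 4 the difference was 1.95 with an adjusted p of 0.0138, the only left-out mouse that gave a member call. With no filter on low counts the adjusted p was 0.000303. Calls over all genes and classes were 10 in the main setting, 19 without placebo 4 and 70 with no filter.

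Other members of this class had higher means by smaller steps. Hspa8 was at 662, 869.7, 890.1, 1256 and 1342 CPM with placebo and 1129.9, 1259 and 2381 CPM with olanzapine, a log2 difference of 0.69 ± 0.28, and the groups overlapped. Dnaja1 was at 213, 272, 330.5, 414 and 479 and 412, 474 and 699.9 CPM, a difference of 0.69 ± 0.29, also overlapping. Hspb1 differed by 0.55 ± 0.27, and its groups did not overlap, as was true of 3.94% of all genes of the class in that direction. ER members were higher for 10 of 13, with a median of 0.26, and Herpud1 differed by 0.62 ± 0.32. The makeup of the class differed too. Mural markers made up 0.791 to 1.3% of UMIs with placebo and 1.55 to 2.12% with olanzapine, without overlap, while endothelial markers made up 0.898 to 1.54% and 0.753 to 1.29%. Immediate early genes, which include stress-responsive Fos and Jun, made up 0.671 to 1.02% and 0.963 to 1.57%. The part of the mural share and of the immediate early genes in these differences was not tested. A subset of 281 cells each had more UMIs of endothelial markers than of mural markers, and more than of fibroblast markers. In it, 9 of the 11 heat shock chaperones that passed the filter were higher with olanzapine, with a median of 0.59, and Hspa1a differed by 1.11.

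In microglia, 11 of 13 heat shock chaperones were higher with olanzapine than with placebo (median log2 difference 0.23, all genes -0.01, of which 48.6% were higher), while 11 of 17 ER members were lower (median -0.08). Hspa8 was at 846, 1192, 1293, 1323 and 1546 CPM in placebo mice and 1233, 1507, 1970.2, 2194 and 2211 CPM in olanzapine mice. Of the 5 olanzapine mice, 3 lay above all placebo mice, and the difference was 0.54 ± 0.18 with an unadjusted p of 0.00422 and an adjusted p of 1.0. Dnaja1, its J-domain partner, was at 136, 154, 158, 166 and 224 CPM with placebo and 177, 189, 236, 347 and 359 CPM with olanzapine, a difference of 0.70 ± 0.21 (unadjusted p 0.00189, adjusted p 1.0). The difference in Dnaja1 was 0.45 without olanzapine 3. Hsp90aa1 did not share this pattern, with a difference of -0.03 ± 0.16.

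Among ER members in microglia with olanzapine, Sdf2l1 was at 299, 303, 324, 344 and 390.2 CPM with placebo and 109, 252, 271, 289 and 294 CPM with olanzapine. The groups did not overlap, a pattern that 0.26% of all genes showed in this direction, and the difference was -0.38 ± 0.20 with an unadjusted p of 0.0629. Pdia3 was at 811, 844, 874, 952 and 968 and 602, 610.0, 692, 746 and 894 CPM, a difference of -0.31 ± 0.16 with overlap. Hspa5 differed by -0.16 ± 0.24. The share of mitochondrial UMIs in microglia was 1.03 to 1.93% with placebo and 1.23 to 1.83% with olanzapine.

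Neuroblasts, where ER members are lowest, had the highest ER median of the 7 classes with olanzapine. That ranking compares unlike sets, as 8 of the 18 ER members passed the filter in neuroblasts and 13 to 17 in the other classes. Of the 8 ER members that passed the filter, 7 were higher (median log2 difference 0.37, all genes -0.01, of which 48.3% were higher). The ER median was 0.67 without placebo 1. Calr, which folds glycoproteins and holds calcium, was at 73.2, 124, 136, 168 and 177 CPM in placebo mice and 177, 235, 253 and 274 CPM in olanzapine mice, so that all 4 olanzapine mice lay above all 5 placebo mice, by under 1 CPM at the nearest pair. Groups were apart in this direction for 0.714% of all genes. The difference was 0.83 ± 0.25 with an unadjusted p of 0.00269 and an adjusted p of 1.0, on 81 placebo and 229 olanzapine UMIs. Pdia3 was at 98.2, 98.8, 123, 146 and 186 and 188, 189, 222 and 338 CPM, again apart, with a difference of 0.74 ± 0.28. Hspa5 was at 126, 136, 256, 292 and 299.8 and 208, 266, 375 and 416 CPM, overlapping, with a difference of 0.59 ± 0.26.

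Of the heat shock chaperones in neuroblasts, 8 of 11 were higher with olanzapine, with a median of 0.088. This median was 0.0119 without placebo 3 and 0.20 without placebo 1, and 5 of 10 were higher without olanzapine 3. Hsp90ab1, the constitutive HSP90, was at 1416, 1608, 1774, 1803 and 1869 CPM with placebo and 2018, 2059, 2089 and 2861 CPM with olanzapine, apart, with a difference of 0.39 ± 0.15. Hspa8 was at 2177, 2446, 2454, 2821 and 2962 and 2307, 3426, 3681 and 3761 CPM, with 3 of 4 olanzapine mice above all placebo mice and a difference of 0.35 ± 0.16. Cell cycle markers made up 0.0273 to 0.442% of neuroblast UMIs with placebo and 0.251 to 0.592% with olanzapine, and their part was not tested. Without the cells that carry at least 2 UMIs of these markers, 1 ER member and 7 heat shock chaperones passed the filter. The 1 ER member, Hspa5, differed by 0.57 and had no p under 0.05. Of the 7, 5 were higher, with a median of 0.19, and 2 had an unadjusted p under 0.05.

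The class labelled olig precursor, which carries myelin genes, differed in opposite directions for the 2 groups with olanzapine. Heat shock chaperones were higher for 8 of 10 (median 0.18) and ER members lower for 12 of 15 (median -0.20), where 51.1% of all genes were higher. Hsp90ab1 was at 823, 882 and 1659 CPM in 3 placebo mice and 1177, 1906, 2011 and 2090.2 CPM in 4 olanzapine mice, a difference of 0.63 ± 0.26. Pdia3 was at 270.1, 455 and 503 CPM and 115, 236, 314 and 320.4 CPM, a difference of -0.76 ± 0.31. In both the groups overlapped. Astrocytes with olanzapine had lower means for 12 of 16 ER members (median -0.13) and 7 of 10 heat shock chaperones (median -0.14), where 45.5% of all genes were higher. Dnajb11, a J-domain partner of BiP, was at 100.0, 128, 139, 142 and 168 CPM with placebo and 34.8, 79.4, 86.3, 102 and 109 CPM with olanzapine, a difference of -0.51 ± 0.24. In neurons with olanzapine the medians were -0.01 for heat shock chaperones and -0.13 for ER members, and in the class labelled oligodendrocyte 0.06 and 0.17.

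Haloperidol gave lower means in the class labelled oligodendrocyte, which carries precursor genes. Heat shock chaperones were lower than placebo for 12 of 13 (median log2 difference -0.36) and ER members for 12 of 15 (median -0.23), where 50.1% of all genes were higher and their median was 0.000698. Each group held 4 mice. Hsp90aa1, the stress-responsive HSP90, was at 823, 951, 1012 and 1045 CPM with placebo and 486, 545, 663 and 905 CPM with haloperidol. Only haloperidol 1 lay within the placebo range, and the difference was -0.59 ± 0.21 with an unadjusted p of 0.0063 and an adjusted p of 0.998. Hsp90ab1 was at 1323, 1336, 1344 and 1766 and 973, 1106, 1123 and 1307 CPM, apart, with a difference of -0.36 ± 0.20. Hspe1, the mitochondrial HSP10, was at 490.0, 532, 556 and 613 and 354, 466, 467 and 469 CPM, also apart, with a difference of -0.35 ± 0.21. Groups were apart in this direction for 1.25% of all genes. Hspa8 differed by -0.56 ± 0.32 with overlap. Myelin markers in this class made up 0.17 to 0.292% of UMIs with placebo and 0.0346 to 0.58% with haloperidol, and their part was not tested.

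In microglia, Atf4 and Hspa5 differed in opposite directions with haloperidol. Atf4, the transcription factor translated when PERK slows general translation, was at 128, 155, 158, 159 and 173 CPM in 5 placebo mice and 209, 245 and 258 CPM in 3 haloperidol mice, apart, with a difference of 0.63 ± 0.24 and an unadjusted p of 0.011. Hspa5 was at 1119, 1339, 1548, 1938 and 2962 CPM with placebo and 999.8, 1075 and 1112 CPM with haloperidol, apart in the other direction, with a difference of -0.74 ± 0.29, and of -0.48 without placebo 4. The adjusted p was 0.948 for both. Groups were apart for 2.24% of all genes in the higher and 1.66% in the lower direction. ER members were lower for 13 of 17 (median -0.14), where 48.5% of all genes were higher, but the median was 0.00215 without haloperidol 5. Hsp90b1 differed by -0.32 ± 0.18 and Calr by -0.37 ± 0.22, both with overlap. Hsp90aa1 was at 359.8, 379.8, 405, 425 and 473 and 311, 316 and 351 CPM, apart, with a difference of -0.31 ± 0.19, whereas heat shock chaperones as a group had a median of -0.02.

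Elsewhere haloperidol gave scattered values. In astrocytes, ER members were lower for 13 of 16 (median -0.23), where 48.3% of all genes were higher, and Creld2, an ER stress-induced secreted protein, averaged 56.2 ± 21.9 CPM (SD, n = 5) with placebo and 29.05 ± 5.21 CPM (SD, n = 5) with haloperidol, where 4 of the 5 placebo mice lay above all haloperidol mice, a log2 difference of -0.82 ± 0.38. Hspa8 in astrocytes differed by -0.57 ± 0.25, with 1 of 5 haloperidol mice above the placebo mean. In neurons, Hsph1, the HSP110 that recharges HSP70, was at 92.5, 92.5, 109, 118 and 122 CPM with placebo and 113, 151, 166, 220.1 and 358 CPM with haloperidol, a difference of 0.78 ± 0.29 with all 5 haloperidol mice above the placebo mean. The highest haloperidol value came from haloperidol 2, which had 15 neurons. Pdia6 in neurons differed by -0.56 ± 0.33 and Hspa5 in neuroblasts by -0.49 ± 0.31. In the class labelled other, Hspa8 differed by 0.50 ± 0.26 and Herpud1 by 0.52 ± 0.33, and that of Hspa1a was -0.07 ± 0.49.

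**Figure D4:**
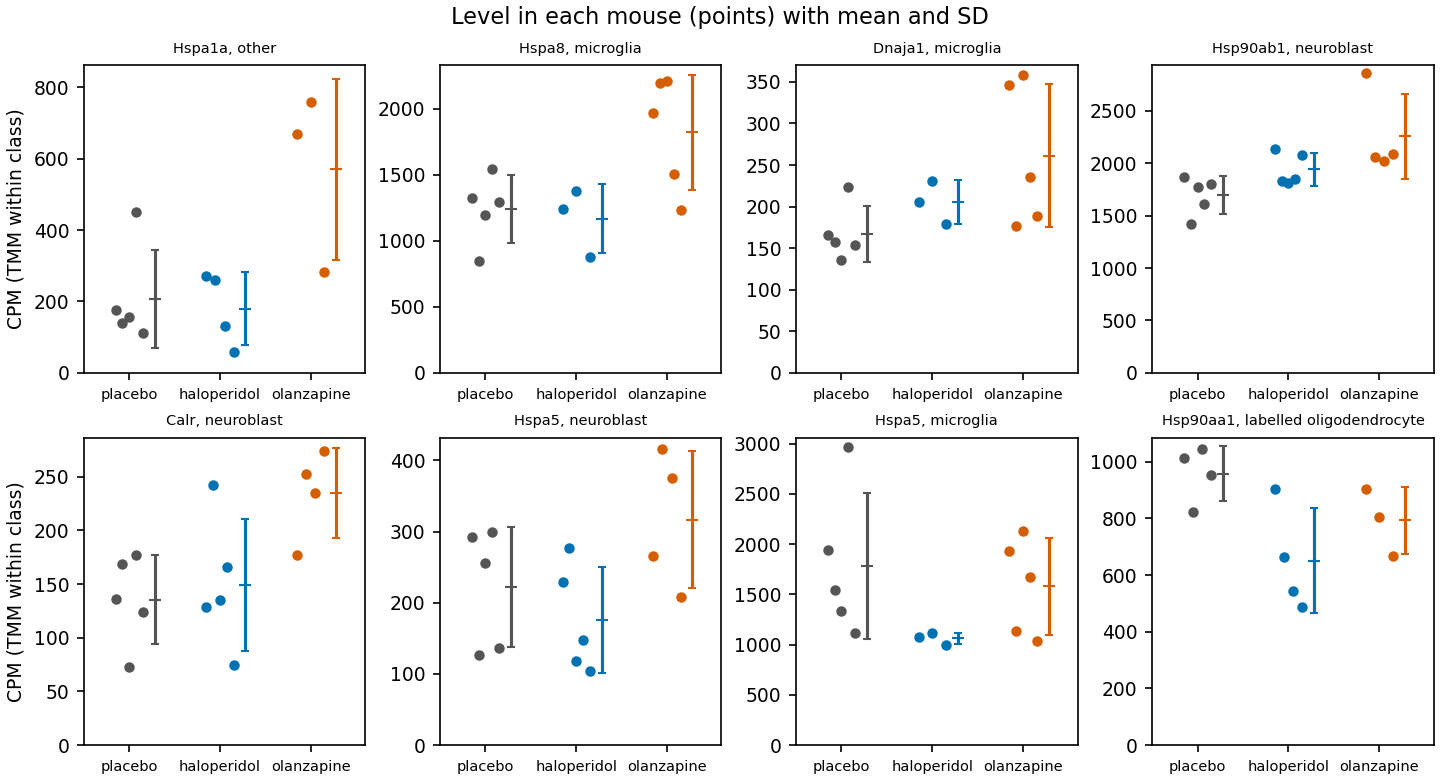
Level of 8 gene and class pairs in each mouse (points; CPM scaled within the class) with group mean and SD, for placebo, haloperidol and olanzapine. All olanzapine mice exceed all placebo mice for Hsp90ab1 and Calr in neuroblasts, haloperidol mice lie below all placebo mice for Hspa5 in microglia, and 1 placebo mouse at 451 CPM overlaps olanzapine for Hspa1a in the class labelled other.

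Values over classes are given for Hsp90aa1, Hspa8, Hspa5 and Calr, of which none was called in a class (± SE). With olanzapine, the log2 difference from placebo ran, for Hsp90aa1, from -0.59 ± 0.58 in astrocytes to 0.50 ± 0.30 in the class labelled olig precursor. For Hspa8 it ran from -0.40 ± 0.25 in astrocytes to 0.69 ± 0.28 in the class labelled other. For Hspa5 it ran from -0.16 ± 0.24 in microglia to 0.59 ± 0.26 in neuroblasts and for Calr from -0.48 ± 0.31 in the class labelled olig precursor to 0.83 ± 0.25 in neuroblasts. With haloperidol it ran, for Hsp90aa1, from -0.59 ± 0.21 in the class labelled oligodendrocyte to -0.06 ± 0.25 in the class labelled other, for Hspa8 from -0.57 ± 0.25 in astrocytes to 0.50 ± 0.26 in the class labelled other, for Hspa5 from -0.74 ± 0.29 in microglia to -0.02 ± 0.27 in the class labelled other and for Calr from -0.37 ± 0.22 in microglia to 0.05 ± 0.28 in neuroblasts. Whether a class differed from the mean of the others was tested for each drug in a fit with each mouse as a block, over 6 classes. The p-values of this fit measure the spread of the sums around each mouse's own level, not the spread between mice. No member passed, against a background of 0.00644% of all tests for olanzapine and 0% for haloperidol. The smallest adjusted p was 0.207, for Hsph1 in astrocytes with olanzapine, where the drug effect was lower than elsewhere by a log2 difference of -1.99 ± 0.46, and Hsph1 was too low in astrocytes to be tested there alone. The effect of olanzapine on Hspa8 was lower in astrocytes than elsewhere by -0.71 ± 0.19 (adjusted p 0.588) and higher in microglia by 0.57 ± 0.19 (adjusted p 0.842). In a simulation this test recovered 44.8% of 4-fold differences. They were set in microglia with olanzapine only, with the same fixed spread for every gene, so the share for other classes is unknown. Among the tested genes 194 were changed at once, which makes the adjusted threshold easier to reach.

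Directly between the drugs, heat shock chaperones at an unadjusted p under 0.05 were lower with haloperidol in 6 of 73 tests and higher in 1, and ER members lower in 4 of 86 and higher in 0, against 1.62% lower and 1.8% higher for all genes. Hspa8 differed by -0.64 ± 0.21 in microglia and -0.51 ± 0.16 in neuroblasts, and the haloperidol values are 881, 1244 and 1381 CPM and 2005, 2096, 2408, 2455 and 2577 CPM. Hspa1a in the class labelled other was at 59.4, 131, 259.9 and 271 CPM with haloperidol, below all 3 olanzapine mice, a difference of -1.53 ± 0.50 with an adjusted p of 0.999, and of 0.00328 with no filter on low counts. With no filter, 8 of 84831 tests of all genes were called between the drugs, against 0 with it. Groups were apart in either direction for 2.4% of tests of all genes. In neuroblasts Hspa5 was at 105, 118, 148, 229 and 277 CPM with haloperidol, a difference from olanzapine of -1.08 ± 0.30, and Calr at 74.9, 129, 135, 166 and 242 CPM, a difference of -0.78 ± 0.27. Xbp1, the factor spliced by IRE1, was at 101, 159, 168 and 265 CPM with haloperidol and 266, 309 and 358 CPM with olanzapine in the class labelled oligodendrocyte, apart, with a difference of -0.78 ± 0.31. The smallest adjusted p was 0.805 for heat shock chaperones and 0.894 for ER members.

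Genes of the same pathways outside the 35 were taken as 2 wider lists, and none was called with all mice and the filter on low counts. Among 62 further cytosolic and mitochondrial chaperones and cochaperones, 10 of 254 tests were higher and 0 lower with olanzapine at an unadjusted p under 0.05, and 2 higher and 7 lower of 222 with haloperidol. The background was 2.08% higher and 2.02% lower of all genes with olanzapine, and 2.02% and 1.94% with haloperidol. Among 60 further ER folding, degradation and stress genes the counts were 2 higher and 5 lower of 210, and 1 higher and 1 lower of 181. In the class labelled other with olanzapine, Ppp1r15a (GADD34), which restarts translation after stress, differed by 1.12 ± 0.27 with an adjusted p of 0.0916, and of 0.0469 without placebo 1 and 0.0481 with no filter. Hspa2 differed there by 1.54 ± 0.44 with an adjusted p of 0.212, and of 0.00608 with no filter. Calls over all genes with olanzapine were 15 without placebo 1 and 70 with no filter, against 10 in the main setting. Cryab, a small heat shock protein of contractile cells, differed by 0.84 ± 0.26 with olanzapine and 0.75 ± 0.26 with haloperidol. Spcs2, a subunit of the signal peptidase, differed by 0.63 ± 0.23. In microglia Cacybp differed by 0.68 ± 0.26 with olanzapine, and in astrocytes Ssr2, of the translocon, by -0.53 ± 0.24.

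With haloperidol, Cct8, a subunit of the ring-shaped TRiC chaperonin that folds actin and tubulin, differed by -0.86 ± 0.20 in neuroblasts, with all 5 haloperidol mice below all placebo mice and an adjusted p of 0.235. Over all classes, haloperidol and placebo groups were apart in either direction for 1.9% of tests of all genes. Against olanzapine the difference in Cct8 was -0.71 ± 0.21, and that of the HSP90 cochaperone Ptges3 (p23) -0.62 ± 0.20. Dnaja2 in microglia differed by 0.89 ± 0.28, Derl1, a channel of ER-associated degradation, by -0.62 ± 0.22, Sil1 in neurons by 0.82 ± 0.39 and P4hb in astrocytes by -0.63 ± 0.32. Between the drugs, Cct5 in astrocytes differed by -0.82 ± 0.32, Spcs2 in the class labelled other by -0.83 ± 0.26, Ssr3 in the class labelled oligodendrocyte by -0.78 ± 0.36 and Edem1 in microglia by -0.66 ± 0.30.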

How the data were processed

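Cell Ranger, Seurat and mm10 are named in the submitters' processing notes, without versions or further steps. The deposited table holds raw UMI counts per gene and cell, with mouse, drug and class lines that the authors added. The 5581 deposited cells had at least 501 genes each. Here cells above 20% mitochondrial UMIs (23) and doublets predicted by Scrublet in scanpy 1.11.5 (81, or 1.45%) were removed under Python 3.11.15. Counts were summed per mouse and class with at least 10 cells. Each class with at least 3 mice per group was fitted over the 3 drugs by the quasi-likelihood test of edgeR 4.0.16 (R 4.3.3) after TMM scaling and filterByExpr, with adjusted p under 0.05 as a call. SE is the log2 difference divided by the square root of F. DESeq2 1.42.0 was an alternative. Scripts were tested on simulated data. The members and lists were chosen with earlier results of these data known. Named pairs are, per placebo comparison and member group, the 8 with the smallest p at a mean log2 CPM of at least 5 (3 between drugs), up to 3 per wider list, and Hsp90aa1, Hspa8, Hspa5 and Calr everywhere.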

Additional observations from a re-analysis of the deposited data

Results flagged for a closer look

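Within each group of 4 or 5 mice, the highest and lowest values were checked for standing apart from the rest by Dixon's 95% criterion. Of 100 groups, 12 had such a value, where chance alone flags about 1 in 20. Among pairs of a gene and a class, Hspa1a in the class labelled other was at 451 CPM in placebo 4, with the nearest mouse of its group at 175, and Hsp90ab1 in neuroblasts was at 2861 CPM in olanzapine 2, with the nearest mouse of its group at 2089. Hsp90ab1 in the class labelled oligodendrocyte was at 1766 CPM in placebo 4, with the nearest mouse of its group at 1344. Hspe1 in that class was at 354 CPM in haloperidol 3, with the nearest mouse of its group at 466. Dnajb11 in astrocytes was at 87.2 CPM in haloperidol 3, with the nearest mouse of its group at 109. In microglia of olanzapine 1, which had 20 such cells, Sdf2l1 was at 109 CPM with the nearest mouse of its group at 252, and Hsp90b1 was at 493 CPM in the same mouse, with the nearest mouse of its group at 595. Pdia6 in neurons was at 873 CPM in olanzapine 2, with the nearest mouse of its group at 426.

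Summed over members, the share of heat shock chaperones in the class labelled olig precursor was at 0.323% of UMIs in olanzapine 5, with the nearest mouse of its group at 0.668%. The share of ER members in neurons was at 0.264% of UMIs in haloperidol 5, with the nearest mouse of its group at 0.435%. In the same class it was at 0.717% of UMIs in olanzapine 2, with the nearest mouse of its group at 0.409%. In the class labelled oligodendrocyte it was at 0.26% of UMIs in haloperidol 5, with the nearest mouse of its group at 0.455%.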

How the results depend on the processing

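No paired analysis was possible because the labels number the mice 1 to 15 once each, so no number is shared between groups. Member calls stayed at 0 except for Hspa1a in the class labelled other, called against placebo with no filter on low counts (1, adjusted p 0.000303) and without placebo 4 (0 to 1 over left-out mice), and between the drugs with no filter (1, adjusted p 0.00328). Calls over all genes rose in these settings too. For olanzapine against placebo they were 10 in the main setting, 70 with no filter and 19 without placebo 4. Between the drugs they were 0 in the main setting and 8 with no filter. The remaining changes are in counts at an unadjusted p under 0.05, given as main value, then alternatives. Each setting tests fewer or more genes, and the cause was not tested beyond that. Summing all cells leaves at most 1 test per member and comparison. With no filter there were 84831 to 97132 tests of all genes per comparison. The share of all genes at that p was not counted for the alternatives, so their counts have no background. Olanzapine against placebo: heat shock higher 9, with no filter 15, all cells summed 0, left-out mice 3 to 12; heat shock lower 0, no filter 1, left-out 0 to 1; ER higher 3, no filter 5, neuroblasts without cycling cells 0, all cells summed 0, left-out 1 to 6. ER lower was 2, with DESeq2 1, at least 20 cells 0, without the 4 mice of few cells 4, mitochondrial covariate 1, all cells summed 0, left-out 0 to 5. Haloperidol against placebo: heat shock higher 1, at least 20 cells 0, without the 4 mice 0, mitochondrial covariate 2, endothelial cells only 2, left-out 0 to 3. Heat shock lower was 2, no filter 5, without the 4 mice 6, covariate 1, all cells summed 0, left-out 1 to 3. ER higher was 1, no filter 2, without the 4 mice 2, covariate 0, all cells summed 0, left-out 1 to 2. ER lower was 2, DESeq2 1, no filter 7, at least 20 cells 4, without the 4 mice 9, covariate 1, all cells summed 0, left-out 1 to 5. Haloperidol against olanzapine: heat shock higher 1, no filter 2, and 0 with doublets kept, at least 20 cells, without the 4 mice and all cells summed, left-out 0 to 1. Heat shock lower was 6, no filter 10, without the 4 mice 10, all cells summed 1, left-out 3 to 9. ER higher was 0, no filter 1, without the 4 mice 2, left-out 0 to 1, and ER lower 4, no filter 8, at least 20 cells 2, all cells summed 1, left-out 3 to 10.

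Over left-out mice the heat shock medians were 0.24 to 0.57 in the class labelled other, 0.15 to 0.34 in microglia and 0.0119 to 0.20 in neuroblasts with olanzapine, and -0.40 to -0.29 in the class labelled oligodendrocyte with haloperidol. The ER medians were 0.27 to 0.67 in neuroblasts with olanzapine and -0.23 to 0.00215 in microglia with haloperidol, the last reversing by 0.00215 without haloperidol 5. Tests of class differences stayed at 0. The highest class stayed the same for 23 of 35 members in plain CPM, an alternative chosen after seeing the data, and for 30 to 31 when a placebo mouse was left out. The 1344 other values were of single pairs, or the lowest and highest difference over classes of Hsp90aa1, Hspa8, Hspa5 and Calr. Of these, 1326 stayed the same. For a pair this means the same direction and side of the threshold, for a lowest or highest difference a move smaller than its SE. Lowest or highest differences moved in 12 cases. Pairs passed the threshold in 6 (Hspa1a as above, and in the class labelled other with olanzapine Hspa2 and Ppp1r15a with no filter and Ppp1r15a without placebo 1). Low counts left members untested, 16 of 35 in neuroblasts, where 11 heat shock chaperones and 8 ER members passed the filter.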
